A study of Mus musculus with 94 samples.

Results

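The interferon response and the class I antigen presentation machinery were followed as a set of 35 genes in cells depleted of the cohesin-release factor WAPL or of the cohesin subunit RAD21. Members were the rows of 4 deposited count tables, 3 of RNA and 1 of nascent RNA, whose symbol is on that list. All 35 were found among the 24421 genes of the table for WAPL days 4 to 7 and among the 22529 genes of the nascent RNA table. Of them, 34 were found among 14997 genes for WAPL days 7 to 10 and 34 among 15363 genes for RAD21 RNA, and Ifi44 was not analysed in those.

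The cells were female mouse embryonic stem cells of a CAST/Ei x 129/Sv/Jae cross with a Tsix-stop allele, in which an FKBP degron was fused to WAPL (clones H7 and H2) or to RAD21 (clones C4 and G9). The degrader dTAG-13 at 500 nM was set against the same volume of DMSO. All groups were grown on irradiated mouse embryonic fibroblast feeders with LIF, then differentiated without LIF as embryoid bodies and plated on gelatin from day 4. WAPL cells had dTAG-13 or DMSO on days 4 to 7, with 3 libraries per group (clone H7 replicates 1 and 2, and clone H2), or on days 7 to 10, with 2 libraries per group, both of clone H7. RAD21 cells had dTAG-13 or DMSO for 8 h, and poly(A) RNA was taken at day 10 or nascent RNA at day 7. Each RAD21 group held 1 library of C4 and 1 of G9, so clone and replicate are the same thing there. The labels do not say whether libraries of 1 clone came from separate cultures, and the p-values therefore describe the spread between libraries, which may be technical.

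Interferons bind receptors at the cell surface, JAK kinases then phosphorylate STAT proteins, and a complex of STAT proteins and IRF9 enters the nucleus and switches on genes carrying the interferon-stimulated response element. Interferon gamma acts on a shorter site, the gamma-activated sequence, and through the factor IRF1. The induced proteins sense viral RNA, block viral entry and translation, and raise the loading of peptides onto MHC class I. Pluripotent stem cells are known for a weak interferon response that is gained as they differentiate.

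Library totals ranged from 8413212 to 35388461 counts, the lowest being DMSO clone H2 of WAPL days 4 to 7, where 3 counts correspond to 0.374 CPM. Levels are CPM, counts scaled to the library's total and TMM factor, and are not divided by gene length, so levels of different genes are not compared. A gene is called where edgeR's quasi-likelihood test gave a Benjamini-Hochberg adjusted p under 0.05 over all genes tested. A log2 fold change is that of dTAG-13 over DMSO and is followed by its SE. The degron acts on the protein, so transcripts do not check its loss: Wapl stood at log2 0.02 on days 4 to 7 and Rad21 at log2 0.14 in the RAD21 RNA, neither past the threshold.

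To show what the promoters of members look like, windows of 60 bases around a motif, upstream of the annotated start, are printed from RefSeq for some members that the results turn on (build GRCm38.p6, while the tables' build is mm9), 5′ to 3′ along the gene. Capitals mark the interferon-stimulated response element core GAAANNGAAA, searched on both strands and read as TTTCNNTTTC on the other strand.
Isg15 (chr4:156200856-156200915, minus strand): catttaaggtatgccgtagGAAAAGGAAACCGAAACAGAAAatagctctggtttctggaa
Ifit1 (chr19:34640769-34640828, plus strand): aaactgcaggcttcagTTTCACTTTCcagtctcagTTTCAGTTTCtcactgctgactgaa
Cxcl10 (chr5:92349068-92349127, minus strand): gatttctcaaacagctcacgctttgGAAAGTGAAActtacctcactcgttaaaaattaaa
Gbp2 (chr3:142620579-142620638, plus strand): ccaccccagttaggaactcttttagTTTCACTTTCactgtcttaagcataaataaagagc
The windows begin 97 bases before the start for Isg15, 120 for Ifit1, 238 for Cxcl10 and 84 for Gbp2. Isg15 held 3 overlapping copies of the core, Ifit1 held 2 separate copies, and Cxcl10 and Gbp2 held 1 each. In the windows of Irf1 and Psmb8, shown because both genes were lower after RAD21 loss in RNA and in nascent RNA, capitals mark instead the gamma-activated sequence TTCNNNGAA, which reads the same on both strands.
Irf1 (chr11:53769898-53769957, plus strand): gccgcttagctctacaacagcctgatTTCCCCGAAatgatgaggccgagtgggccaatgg
Psmb8 (chr17:34198072-34198131, plus strand): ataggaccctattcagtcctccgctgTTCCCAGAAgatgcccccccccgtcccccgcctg
These windows begin 116 bases before the start for Irf1 and 123 for Psmb8. Of the 35 members, 30 had a promoter entry, which covers 250 bases before the start and 50 after it. The response element core was in the entry of 13 of these 30 members (43.3%), against 1079 of 27025 genes with an entry (3.99%). The gamma-activated sequence was in 6 of the 30 (20%), against 9.55% of all genes. Besides Irf1 and Psmb8 these were Bst2, Ifi35, Ifit2 and Ifitm3, which were called in neither RAD21 assay. Another promoter entry of Irf1 held no match. A link between this sequence and the response to RAD21 loss was not tested. The motifs can overlap, and a match is a description of the letters only.

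In WAPL cells treated on days 4 to 7, 14 of the 32 members tested rose with dTAG-13 and none fell. Over all genes tested 9.46% were called higher, 5.73% lower and 15.2% in either direction. The rising genes were the ubiquitin-like modifier Isg15 and its protease Usp18, the RNA sensors Ddx58 and Ifih1, the effectors Ifit1, Oasl2, Ifitm3, Gbp2, Rtp4, Ifi35 and Xaf1, the chemokine Cxcl10, and the class I genes Tap1 and H2-D1. The members' median log2 fold change was 0.36, against -0.01 over all genes tested, and 23 members were positive and 9 negative. Groups did not overlap in 15 members with dTAG-13 higher and in 3 with dTAG-13 lower, against 16.4% and 14.6% of all genes. Irf7, Ifit3 and Ifi44 had too few counts to be tested. Values per library are given in the order clone H7 replicate 1, clone H7 replicate 2 and clone H2.

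**Figure D1:**
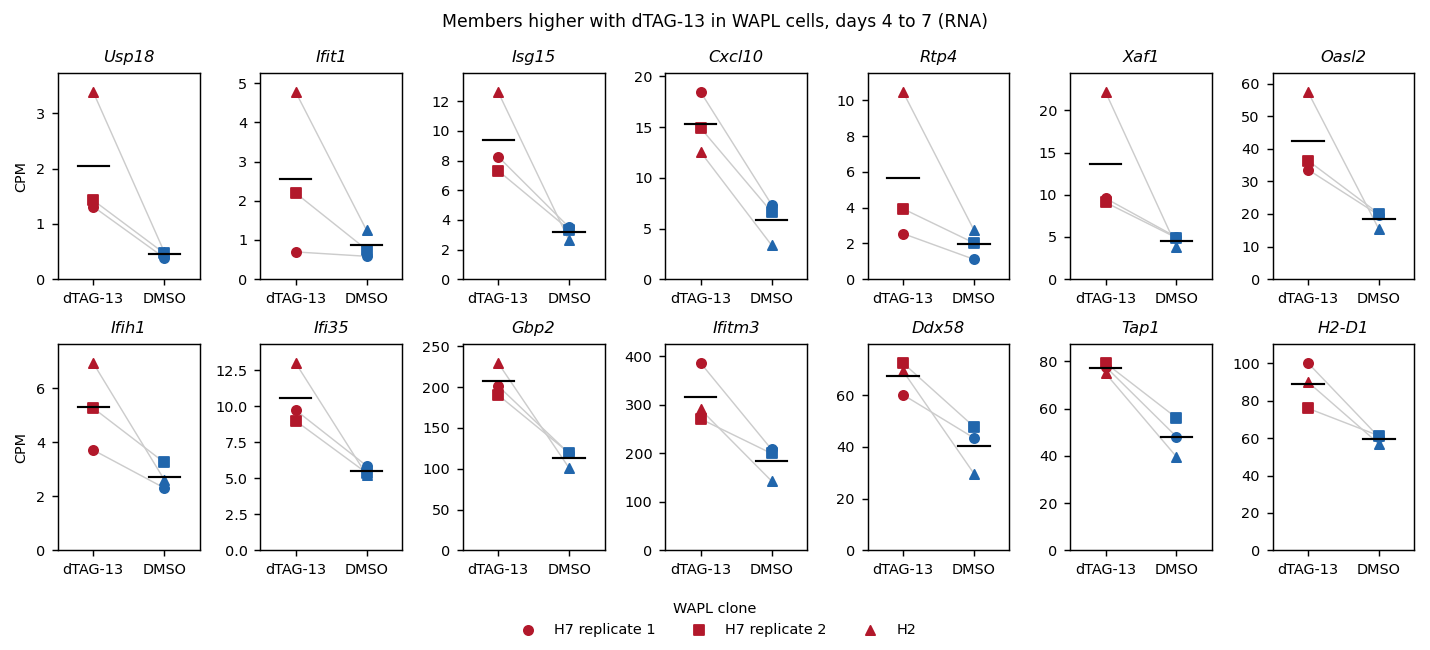
Level in CPM (linear axis from 0, own scale per gene) of the 14 members that rose in WAPL cells on days 4 to 7, with dTAG-13 at the left and DMSO at the right of each panel; symbols stand for the clone and replicate, grey lines join libraries of the same clone and number, and black bars are means of 3 libraries. In 12 of the 14 panels every dTAG-13 library lies above every DMSO library, the exceptions being Ifit1 and Rtp4.

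Isg15, whose product is attached to other proteins like ubiquitin, had 8.27 and 7.32 CPM in dTAG-13 libraries of clone H7 and 12.6 CPM in that of clone H2, against 3.50, 3.34 and 2.62 CPM in the matching DMSO libraries. The groups did not overlap, and the clone H2 library was the highest with dTAG-13 and the lowest with DMSO (log2 1.46, SE 0.23, adjusted p = 0.0073). Usp18, which removes ISG15 and damps receptor signalling, had 1.31, 1.43 and 3.39 CPM with dTAG-13 and 0.389, 0.471 and 0.498 CPM with DMSO. It had the largest fold change of the called members (log2 1.96, SE 0.32, adjusted p = 0.00781) at a low level, with 4 reads in the DMSO library of clone H2. Dhx58, which encodes the regulatory sensor LGP2, and Trim25, a ubiquitin ligase acting on RIG-I, are the other members of this group. Trim25 had 76.0, 77.7 and 68.1 CPM with dTAG-13 and 96.6, 92.4 and 81.4 CPM with DMSO, which did not overlap but missed the threshold (log2 -0.28, adjusted p = 0.0643). Dhx58 stood at log2 -0.46 with an adjusted p of 0.24.

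Of the cytosolic sensors of viral RNA, Ddx58 and Ifih1 rose, while Dhx58 had 1.47, 1.39 and 1.39 CPM with dTAG-13 and 1.86, 2.31 and 1.62 CPM with DMSO and was not called. Ddx58, which encodes RIG-I, had 60.2, 72.5 and 69.4 CPM with dTAG-13 and 43.5, 47.8 and 29.7 CPM with DMSO (log2 0.75, SE 0.16, adjusted p = 0.0175). Ifih1, which encodes MDA5, had 3.71, 5.26 and 6.93 CPM with dTAG-13 and 2.31, 3.25 and 2.62 CPM with DMSO (log2 0.92, SE 0.25, adjusted p = 0.045). The groups of Ddx58 and those of Ifih1 did not overlap.

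Of the 14 antiviral effectors 12 were tested and 7 rose. Gbp2, an interferon-induced GTPase that acts on pathogen membranes, had 202, 191 and 230 CPM with dTAG-13 and 118.8, 119.4 and 101 CPM with DMSO (log2 0.87, SE 0.12, adjusted p = 0.00385). Ifitm3, which blocks viral fusion, had 386, 271 and 291 CPM with dTAG-13 and 208, 200 and 143 CPM with DMSO (log2 0.80, SE 0.15, adjusted p = 0.011). Of its relatives, Ifitm1 stood at log2 0.14 and Ifitm2 at log2 -0.13, with overlapping groups in both, and the difference between these genes was not tested. Oasl2, an oligoadenylate synthetase-like protein, had 33.6, 36.4 and 57.4 CPM with dTAG-13 and 19.7, 20.1 and 15.3 CPM with DMSO (log2 1.15, SE 0.21, adjusted p = 0.0106). Xaf1, which promotes cell death, had 9.58, 9.10 and 22.2 CPM with dTAG-13 and 4.98, 4.90 and 3.86 CPM with DMSO (log2 1.36, SE 0.29, adjusted p = 0.0186). In both genes clone H2 showed the widest gap between treatments. Ifi35 had 9.74, 8.99 and 13.01 CPM with dTAG-13 and 5.87, 5.37 and 5.23 CPM with DMSO (log2 0.89, SE 0.17, adjusted p = 0.0138), again without overlap.

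Rtp4 and Ifit1 rose with overlapping groups. Rtp4, an interferon-induced chaperone of receptors, had 2.55, 3.94 and 10.5 CPM with dTAG-13 and 1.11, 2.03 and 2.74 CPM with DMSO (log2 1.38, SE 0.31, adjusted p = 0.0225). Ifit1, which binds viral RNA caps, had 0.695, 2.20 and 4.77 CPM with dTAG-13 and 0.584, 0.754 and 1.25 CPM with DMSO (log2 1.47, SE 0.41, adjusted p = 0.0483). For Ifit1 the replicate 1 pair of clone H7 differed by log2 0.22. Rsad2, the radical SAM enzyme viperin, had 1.70, 1.95 and 5.85 CPM with dTAG-13 and 1.53, 0.754 and 0.498 CPM with DMSO, without overlap and without passing the test (log2 1.27, SE 0.49, adjusted p = 0.12). Ifit2, a relative of Ifit1, stood at log2 -0.25 and Bst2, which tethers virions, at log2 0.04, neither past the threshold.

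Cxcl10, the chemokine that draws T cells, had 18.5, 14.9 and 12.5 CPM with dTAG-13 and 7.37, 6.64 and 3.36 CPM with DMSO. Its groups did not overlap (log2 1.40, SE 0.18, adjusted p = 0.00379), and it had the smallest p of all members. Of the untested genes, Irf7, an amplifier of interferon production, had 0.232, 0.453 and 1.00 CPM with dTAG-13 and 0.0556, 0.0471 and 0.125 CPM with DMSO. Ifit3, a partner of IFIT1, had 0.0773, 0.139 and 1.62 CPM with dTAG-13 and 0.0834, 0.188 and 0.125 CPM with DMSO, so that the clone H2 dTAG-13 library stood alone.

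Among the 7 antigen presentation genes, Tap1 and H2-D1 rose. Tap1, a subunit of the peptide transporter into the endoplasmic reticulum, had 77.8, 79.3 and 75.0 CPM with dTAG-13 and 48.1, 56.1 and 39.6 CPM with DMSO (log2 0.70, SE 0.11, adjusted p = 0.00787). H2-D1, a class I heavy chain, had 100.2, 76.0 and 90.1 CPM with dTAG-13 and 60.6, 61.3 and 56.9 CPM with DMSO (log2 0.57, SE 0.12, adjusted p = 0.0188). Both genes' groups were apart. The loading factor Tapbp (log2 0.33, adjusted p = 0.0681), the light chain B2m (log2 0.26, adjusted p = 0.131) and the immunoproteasome subunits Psmb9 (log2 0.39, adjusted p = 0.162) and Psmb8 (log2 0.20, adjusted p = 0.324) had positive values short of the threshold. H2-K1, the other class I heavy chain, stood at log2 -0.01. Tap1 and Psmb9 are neighbours on chromosome 17 that point away from each other, with 225 bases between their annotated starts in GRCm38.p6. The constitutive proteasome subunits that the immunoproteasome replaces, Psmb5, Psmb6 and Psmb7, stood between log2 -0.12 and -0.04, with 0 of 3 called.

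None of the 4 signal regulators was called. Irf1 had 126, 118 and 155 CPM with dTAG-13 and 128, 139 and 147 CPM with DMSO, and its groups overlapped (log2 -0.06, adjusted p = 0.7). Stat2 stood at log2 0.14 and Irf9 at log2 0.01. The 3 ADP-ribosylation genes were also uncalled: Parp9 and its ubiquitin ligase partner Dtx3l, which lie next to each other and to Parp14 on chromosome 16, had log2 -0.12 and -0.38, and Parp14 had log2 -0.23.

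The single clone H2 pair had the largest response of the 3 pairs in 24 of the 32 members tested and in 13 of the 14 called members, the exception being H2-D1. These libraries also entered the calls. How often genes outside the list had the clone H2 pair highest was not counted, so these counts are not a result about the members. All 14 called members were higher with dTAG-13 in every pair, which a call from the same libraries favours. Xaf1 rose by log2 2.49 within the clone H2 pair, against 0.93 and 0.88 in the clone H7 pairs. Rsad2, which was not called, had log2 3.31 within the clone H2 pair, against 0.14 and 1.26 in clone H7. A test of the response of clone H2 minus that of clone H7, added after the data were seen, called none of 32 members and none of 14544 genes (0%). At an unadjusted p under 0.05 there were 5 members and 302 genes. Of the members 28 were positive, with a median log2 of 0.40, against -0.01 over all genes tested. DESeq2 called 1 gene there. With clone H7 alone, 4 members were called (Cxcl10, Gbp2, Isg15 and Oasl2), and the same 4 were called after leaving out either library of clone H2.

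**Figure D2:**
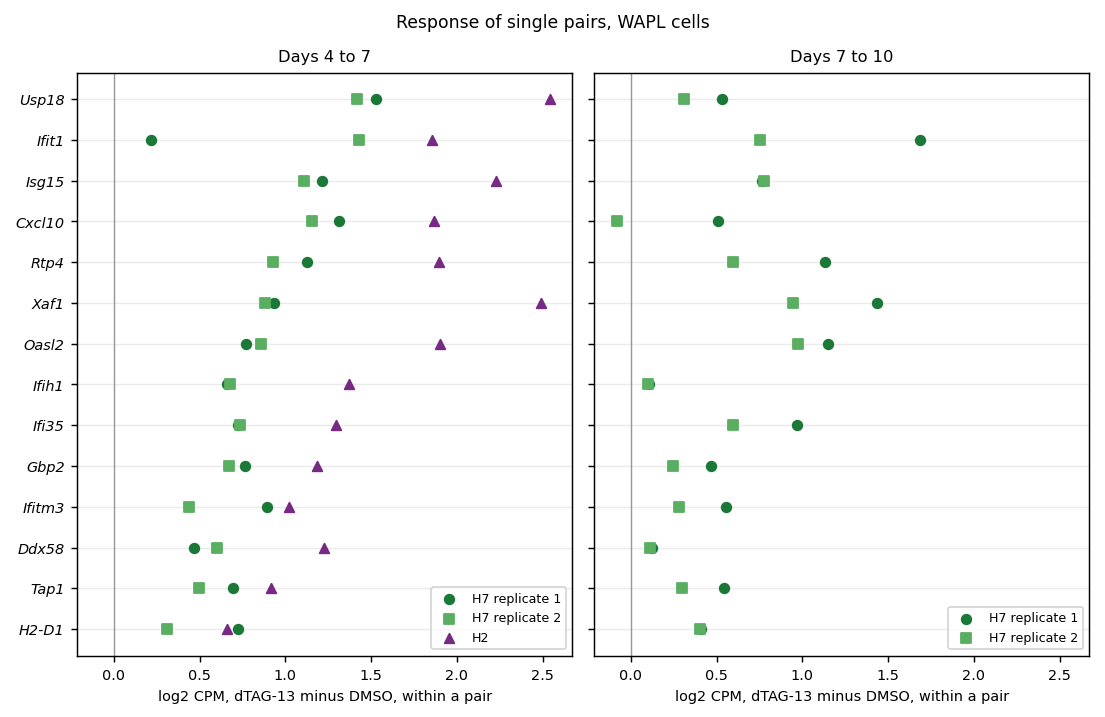
Difference of log2 CPM, dTAG-13 minus DMSO, within each pair of same-numbered libraries of WAPL cells, for the 14 members that rose on days 4 to 7; left days 4 to 7, right days 7 to 10, symbols for clone and replicate. On days 4 to 7 clone H2 lies farthest right in 13 of 14 genes, and on days 7 to 10, where clone H2 was not sampled here, nearly all points lie right of 0, the exception being 1 point of Cxcl10.

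The counts of risers were also taken by promoter motif, with no test. Of the 12 tested members with the response element core, 7 rose, with a median log2 of 0.83. Of the 15 tested members with an entry and no core, 5 rose, with a median log2 of 0.20. Oasl2, Xaf1, Tap1, H2-D1 and Ifi35 are the 5 that rose without the core in the 300 bases searched. Of the 6 members with the gamma-activated sequence, 2 rose.

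Other genes of the pathway were taken from fixed lists, whose counts stand against 9.46% of all genes called higher and 5.73% lower. Interferon genes themselves were at or near 0: of 8 ligand genes in the table for days 4 to 7, 7 were at 0 in every library, and Ifng summed to 0.0348 to 0.155 CPM with dTAG-13 and 0 CPM with DMSO, under 3 counts in each library. Of 10 receptor, JAK and STAT genes 4 rose and none fell, with a median log2 of 0.37. They included Stat3 (log2 0.60, SE 0.10), the receptor chain Il10rb (1.02, SE 0.24) and Jak1 (0.40, SE 0.11). Of 21 sensing and induction genes 2 rose and 1 fell, which is near the shares of all genes. The kinase Ikbke (log2 1.30) and the adaptor Traf3 (log2 0.51) rose, and Irf8 (log2 -1.58) fell.

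Of 13 negative regulators 5 rose and none fell. They include Tnfaip3, which restrains NF-kappaB (log2 0.87), Trim30a (1.31), the repressor Irf2 (0.99) and the signalling inhibitor Socs3 (0.71). Of 38 other interferon-stimulated genes 6 rose and 2 fell, among them the chemokine Cxcl11 (log2 1.44) and the GTPases Gbp3 (1.25), Iigp1 (1.89) and Irgm1 (0.61), all higher. Of 20 further antigen presentation genes 3 rose and 2 fell: the class II chaperone Cd74 (log2 1.42) and the class II chain H2-Eb1 (0.96) were higher, as was the class I transactivator Nlrc5 (1.09), while the class II genes H2-Ab1 (-0.92) and H2-DMa (-0.91) were lower.

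Markers of other cells moved in the same libraries. The members' summed level was 2020, 1742 and 2105 CPM with dTAG-13 and 1562, 1565 and 1528 CPM with DMSO. Of 12 immune cell markers in the table, 4 were tested and 3 rose (Cd68, Aif1 and Itgam), and the list summed to 31.9 to 39.7 CPM with dTAG-13 and 17.7 to 19.1 CPM with DMSO. The defining leukocyte marker Ptprc was at 0.0773, 0.139 and 0 CPM with dTAG-13 and 0, 0.188 and 0 CPM with DMSO, and Tyrobp, Adgre1 and Lyz2 were at 0 in 4 of the 6 libraries each. Of 7 trophoblast markers tested, out of 8, 4 rose (Krt7, Krt8, Krt18 and Hand1), and the list summed to 1083 to 1383 CPM with dTAG-13 and 370.0 to 609.9 CPM with DMSO. Of 17 fibroblast and feeder markers tested, out of 19, 6 rose and 1 fell, with sums of 258 to 306 CPM with dTAG-13 and 196 to 232 CPM with DMSO. The other marker lists had overlapping sums. Of 7 endothelial markers tested 1 rose, with sums of 126 to 175 CPM with dTAG-13 and 82.7 to 150 CPM with DMSO. Of 10 pluripotency markers 1 fell (2055 to 2880 CPM with dTAG-13, 2574 to 2867 CPM with DMSO). Of 14 differentiation markers of embryoid bodies 2 rose and 4 fell (459 to 677 CPM with dTAG-13, 663 to 805 CPM with DMSO). What part these markers have in the members' rise was not tested, and in bulk RNA more cells of a type and more RNA per cell cannot be told apart.

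**Figure D3:**
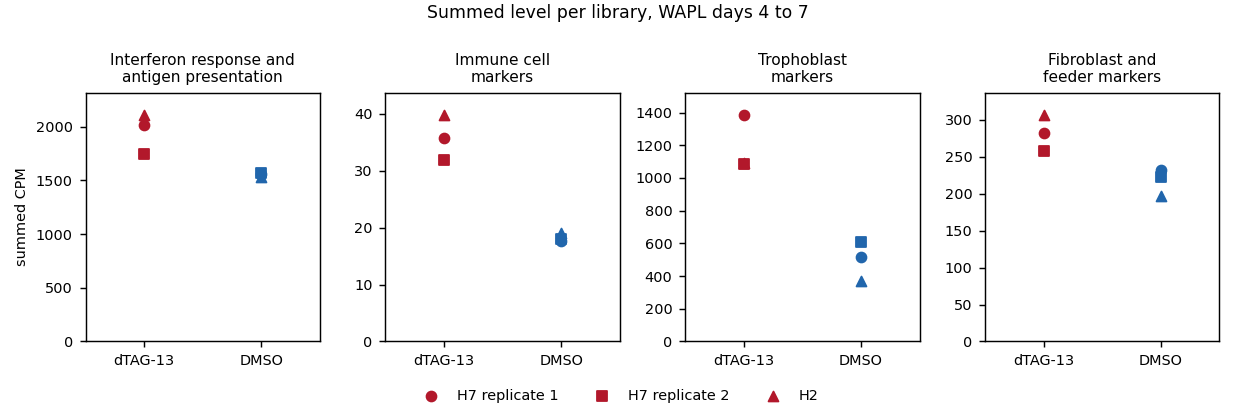
Summed CPM per library (linear axes from 0) of the 35 members and of 3 marker lists in WAPL cells on days 4 to 7, dTAG-13 at the left and DMSO at the right, symbols for clone and replicate. In all 4 panels every dTAG-13 library lies above every DMSO library. The endothelial, pluripotency and differentiation lists, which are not drawn, had overlapping sums.

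In WAPL cells treated on days 7 to 10, none of 34 members tested and none of 14110 genes was called (0%). At an unadjusted p under 0.05 there were 7 members, all with positive values, against 926 genes (6.56%), and DESeq2 called 44 genes and no member. A fit that takes the replicate number as a pair did call members and many other genes, and the closing section gives both counts side by side. The absence of calls therefore depends on the design, and the labels do not say whether the number pairs libraries. The members' median log2 was 0.25, against -0.01 over all genes. In 22 of 34 members both clone H7 pairs were higher, and in 4 (Trim25, Dtx3l, Parp9 and Dhx58) both were lower. All 14 members that rose on days 4 to 7 had positive values here, 6 of them at an unadjusted p under 0.05. Of all genes tested 48.0% had positive values. How often other genes had both pairs on the same side, or stayed positive after an earlier rise, was not counted. These counts are therefore not a result about the members. The libraries of the later window share no DMSO samples with the earlier window. Marker lists of other cells were counted here too, and edgeR called none of 6 immune, 7 trophoblast and 10 pluripotency markers tested, with 3 of each list at an unadjusted p under 0.05. The immune list was split, with 3 positive and 3 negative values. Of its markers with an unadjusted p under 0.05, Cd68 (log2 0.68) and Aif1 (1.02) were higher and Cd3e (-1.12) was lower. Immune markers summed to 37.7 to 39.8 CPM with dTAG-13 and 25.1 to 26.6 CPM with DMSO, and trophoblast markers to 2228 to 2632 CPM with dTAG-13 and 1600 to 1790 CPM with DMSO, both without overlap. Cd68 carried most of the immune sum, at a mean log2 CPM of 4.77 against 0.63 or less for the others tested. All 10 pluripotency markers had negative values. Of 14 differentiation markers of embryoid bodies 12 were negative, and 6 had an unadjusted p under 0.05, 5 of them lower. Their sums were 658 to 771 CPM with dTAG-13 and 775 to 802 CPM with DMSO, without overlap. Of 17 fibroblast and feeder markers 14 were positive, and 5 had an unadjusted p under 0.05, 3 higher and 2 lower. Of 5 endothelial markers 2 were positive. Sums of these last lists overlapped, and no marker was called. The part of these markers in the members' values was not tested.

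Ifit3 had the largest value, with 3.13 and 1.18 CPM in dTAG-13 libraries and 0.319 and 0.152 CPM in DMSO libraries (log2 3.10, SE 0.73, adjusted p = 0.675), the DMSO libraries holding 6 and 3 reads. Xaf1 had 20.2 and 15.4 CPM with dTAG-13 and 7.38 and 7.94 CPM with DMSO (log2 1.21, SE 0.22, adjusted p = 0.663). Oasl2 had 32.9 and 25.8 CPM with dTAG-13 and 14.8 and 13.1 CPM with DMSO (log2 1.07, SE 0.21, adjusted p = 0.663). In all 3 genes the groups stood apart. Groups did not overlap, with dTAG-13 higher, in 14 members, against 17.3% of all genes.
Ifit1 had 3.13 and 1.95 CPM with dTAG-13 and 0.903 and 1.11 CPM with DMSO, and Rtp4 had 7.00 and 5.77 CPM with dTAG-13 and 3.13 and 3.79 CPM with DMSO. Ifi35 had 18.3 and 12.5 CPM with dTAG-13 and 9.29 and 8.24 CPM with DMSO. The adjusted p of these 3 genes lay between 0.691 and 0.701, with non-overlapping groups. In the receptor, JAK and STAT list 10 of 10 values were positive and none was called. Of 38 other interferon-stimulated genes, 32 were positive and none was called, and 8 had an unadjusted p under 0.05.

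Whether the later window differed from the earlier was tested on the difference itself, response on days 7 to 10 minus response on days 4 to 7. None of 34 members and none of 14326 genes was called (0%), with 3 members and 423 genes (2.95%) at an unadjusted p under 0.05, and DESeq2 called 4 genes and no member. Usp18 differed by log2 -1.52 (SE 0.35), Cxcl10 by -1.19 (SE 0.30) and Gbp2 by -0.50 (SE 0.18), each with an adjusted p that rounds to 1.00. Usp18 shows the numbers behind this: its DMSO libraries had 0.389 to 0.498 CPM at day 7 and 6.42 to 6.80 CPM at day 10, in tables scaled separately. A value short of the threshold does not show that the windows act alike.

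In RAD21 cells after 8 h of dTAG-13, 8 of 34 members fell and 3 rose in the day 10 RNA. Over all genes tested 8.89% were called lower, 9.83% higher and 18.7% in either direction (29% had an unadjusted p under 0.05). The share of members that fell, 8 of 34, lay above the share of all genes, and the share that rose, 3 of 34, lay close to it. The members' median log2 was -0.06, against 0.01 over all genes. The called changes ran between log2 -0.94 and 0.29. Groups did not overlap in 11 members with dTAG-13 lower and in 4 with dTAG-13 higher, against 15.3% and 15.6% of all genes. With 1 residual degree of freedom these calls depend on the test: DESeq2 called none of the 34 members here, and leaving out any of the 4 libraries, which also drops the clone term, left 0 members called. With library totals in place of TMM the 8 lower calls were kept and the 3 higher were not, and the whole table went to 710 higher and 1303 lower calls, against 1422 higher and 1286 lower.

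Usp18 had 17.8 and 19.7 CPM in dTAG-13 libraries of C4 and G9, against 24.3 and 27.4 CPM in their DMSO libraries (log2 -0.46, SE 0.09, adjusted p = 6.21e-06). The groups did not overlap, and the responses within C4 and G9 were log2 -0.45 and -0.47. Ifit1 had 3.97 and 4.56 CPM with dTAG-13 and 6.84 and 7.32 CPM with DMSO (log2 -0.74, SE 0.17, adjusted p = 0.000342). Ifit3, next to it in the family, had 1.40 and 1.79 CPM with dTAG-13 and 3.19 and 2.78 CPM with DMSO (log2 -0.94, SE 0.26, adjusted p = 0.0037). Ifit2 stood at log2 -0.09 and was not called. Rtp4 had 9.35 and 8.15 CPM with dTAG-13 and 11.5 and 11.7 CPM with DMSO (log2 -0.40, SE 0.13, adjusted p = 0.0138). Oasl2 had 26.01 and 27.4 CPM with dTAG-13 and 30.1 and 31.8 CPM with DMSO (log2 -0.21, SE 0.08, adjusted p = 0.0406). In Ifit1, Ifit3, Rtp4 and Oasl2 both dTAG-13 libraries lay below both DMSO libraries.

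Irf1, the factor whose promoter carries the gamma-activated sequence printed above, had 105 and 97.9 CPM with dTAG-13 and 122 and 117 CPM with DMSO (log2 -0.24, SE 0.06, adjusted p = 0.0004). Parp14 had 30.2 and 25.9 CPM with dTAG-13 and 34.8 and 33.7 CPM with DMSO (log2 -0.29, SE 0.08, adjusted p = 0.00201). Psmb8, the immunoproteasome subunit replacing Psmb5, had 48.0 and 51.7 CPM with dTAG-13 and 55.0 and 58.8 CPM with DMSO (log2 -0.19, SE 0.06, adjusted p = 0.0149). These falls amount to fold changes between 0.819 and 0.876. The 3 that rose were Ifih1, with 24.8 and 19.9 CPM with dTAG-13 and 19.5 and 17.0 CPM with DMSO (log2 0.29, adjusted p = 0.0144), Ifitm1 (log2 0.18, adjusted p = 0.0147) and Tapbp (log2 0.18, adjusted p = 0.0291). Isg15 had 24.9 and 25.2 CPM with dTAG-13 and 27.01 and 27.7 CPM with DMSO and was not called (log2 -0.13, adjusted p = 0.315).

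**Figure D4:**
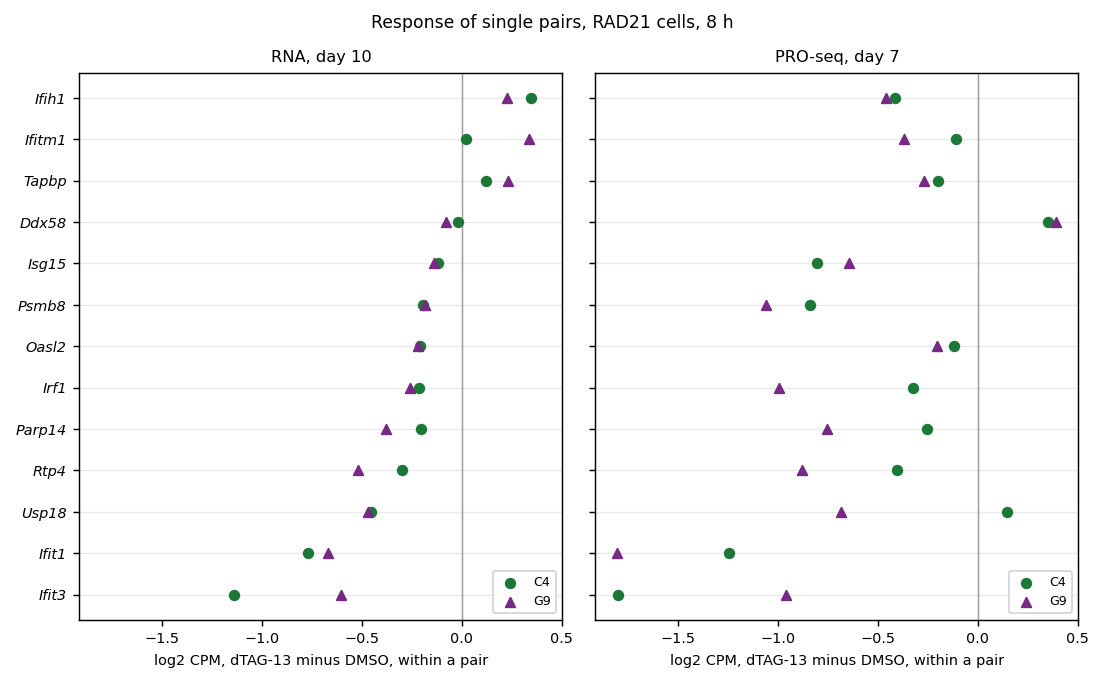
Difference of log2 CPM, dTAG-13 minus DMSO, within each RAD21 clone (circles C4, triangles G9) for the 13 members called in the day 10 RNA or the day 7 PRO-seq after 8 h; left RNA, right PRO-seq, with a shared axis. Genes left of 0 in both clones of both assays include Irf1, Parp14, Psmb8, Isg15, Rtp4, Ifit1 and Ifit3, the last with too few PRO-seq counts to be tested. Ifih1, Ifitm1 and Tapbp lie right of 0 in RNA and left of 0 in PRO-seq.

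PRO-seq maps RNA polymerases engaged in transcription, so it reads the making of RNA and not its amount. In RAD21 cells at day 7, 4 of 33 members fell and 1 rose after 8 h, against 4.66% of all genes lower, 5.9% higher and 10.6% in either direction (23.8% at an unadjusted p under 0.05). The members' median log2 was -0.21, against -0.003 over all genes, and 25 members were negative and 8 positive. Groups did not overlap in 5 members with dTAG-13 lower, near the 15.9% of all genes, and in 2 with dTAG-13 higher, against 14.5%. DESeq2 called 1 member, Psmb8, lower, and leaving out any of the 4 libraries left 0 members called. Ifit3 and Ifi44 had too few counts to be tested.

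Irf1 had 93.2 and 113 CPM with dTAG-13 in C4 and G9, against 117 and 225 CPM with DMSO (log2 -0.65, SE 0.09, adjusted p = 8.64e-06). Psmb8 had 4.48 and 9.75 CPM with dTAG-13 and 8.09 and 20.4 CPM with DMSO (log2 -0.96, SE 0.18, adjusted p = 0.000301). Parp14 had 15.4 and 20.0 CPM with dTAG-13 and 18.4 and 33.8 CPM with DMSO (log2 -0.50, SE 0.14, adjusted p = 0.017). These 3 are the members called in both RAD21 assays, lower in each, and the libraries of the assays are separate. How many genes outside the list were called in both was not counted. In Psmb8 and Parp14 the groups overlap, since G9 stands above C4 in both treatments. Isg15 had 3.01 and 5.77 CPM with dTAG-13 and 5.34 and 9.08 CPM with DMSO (log2 -0.74, SE 0.22, adjusted p = 0.0298). Ddx58 rose, with 36.1 and 36.7 CPM with dTAG-13 and 28.3 and 27.95 CPM with DMSO (log2 0.37, SE 0.11, adjusted p = 0.0288). Dtx3l, with 21.96 and 29.2 CPM with dTAG-13 and 25.1 and 41.0 CPM with DMSO, missed the threshold (log2 -0.34, adjusted p = 0.0686). Ifit1 had 0.344 and 0.137 CPM with dTAG-13 and 0.943 and 0.709 CPM with DMSO and was not called (log2 -1.69, SE 0.64, adjusted p = 0.0897). Cxcl10 had 1.55 and 3.78 CPM with dTAG-13 and 1.09 and 1.28 CPM with DMSO and was not called (log2 1.00, adjusted p = 0.0988).

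The C4 and G9 libraries differed in nascent transcription of some members. Clone and replicate are the same thing here, so a trait of the clone cannot be told from a difference between libraries. Gbp2 had 43.1 CPM in C4 and 184 CPM in G9 with dTAG-13, and 50.4 CPM in C4 and 179 CPM in G9 with DMSO, while its treatment effect was log2 -0.08. The clone term of the fit takes up such gaps. In the day 10 RNA the same gene had 174 and 168 CPM with dTAG-13 and 181 and 163 CPM with DMSO in C4 and G9.

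The other lists were also counted in both RAD21 assays. Of all genes, 9.83% were called higher and 8.89% lower in RNA, and 5.9% higher and 4.66% lower in PRO-seq. Of 21 sensing and induction genes in RNA 6 rose and none fell, and of 20 in PRO-seq 5 rose and 1 fell. Nfkb2, Relb and Nfkb1, subunits of NF-kappaB, rose in RNA (log2 0.41, 0.30 and 0.21) and in PRO-seq (log2 0.48, 0.38 and 0.28). Ikbke (log2 0.44 in RNA and 0.72 in PRO-seq) and Traf3 (0.24 and 0.27) rose in both, and Irf3, the factor that starts interferon transcription, fell in PRO-seq (log2 -0.49). Of 10 receptor, JAK and STAT genes 4 rose in RNA, among them Stat3, Ifnar1 and Jak2 (log2 0.20 to 0.23), and none was called in PRO-seq.

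Of 41 other interferon-stimulated genes in RNA 3 rose and 7 fell, with Cd274 (log2 -0.62), Pml (-0.28), Parp12 (-0.29) and Samd9l (-0.52) lower and Cxcl11 (0.61) and Irgm1 (0.34) higher. Of 42 in PRO-seq none rose and 9 fell, among them Mx2 (log2 -1.13), Mov10 (-0.48), Gbp7 (-0.79) and Irgm2 (-0.72). Of 20 further antigen presentation genes in PRO-seq 4 fell and 1 rose. The 4 were the immunoproteasome subunit Psmb10 (log2 -0.66), the proteasome activators Psme1 (-0.75) and Psme2 (-0.64) and the tapasin relative Tapbpl (-0.73), and H2-DMa (0.30) rose. The member Psmb9 stood at log2 -0.14 in PRO-seq and was not called, and 0 of the constitutive subunits were. In the day 10 RNA 1 of 22 of these genes rose, Cd74 (log2 0.46), and 2 fell, H2-Q7 (-0.72) and H2-T23 (-0.68), which are members of a family of near copies whose reads may be shared.

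Immune markers in the RAD21 libraries summed to 20.3 to 23.9 CPM with dTAG-13 and 18.5 to 20.5 CPM with DMSO in RNA, and to 72.1 to 103 CPM with dTAG-13 and 84.5 to 114 CPM with DMSO in PRO-seq. Pluripotency markers fell in the day 10 RNA, 8 of 10 called, with sums of 1019 to 1346 CPM with dTAG-13 and 1226 to 1691 CPM with DMSO. In PRO-seq 6 of 10 pluripotency markers fell and none rose, with non-overlapping sums of 403 to 561 CPM with dTAG-13 and 577 to 703 CPM with DMSO. Of 14 differentiation markers of embryoid bodies 5 fell and 1 rose in RNA, and 5 fell and 1 rose in PRO-seq. Endothelial markers in RNA summed to 91.9 to 95.9 CPM with dTAG-13 and 115 to 123 CPM with DMSO, without overlap, and 1 of 6 fell. Of 7 trophoblast markers in RNA 2 rose and 3 fell, and of 17 fibroblast and feeder markers 1 rose and 3 fell. The sums of both these lists overlapped in RNA, and those of the endothelial, trophoblast and fibroblast lists did so in PRO-seq. The part of these markers in the members' values was not tested.

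**Figure D5:**
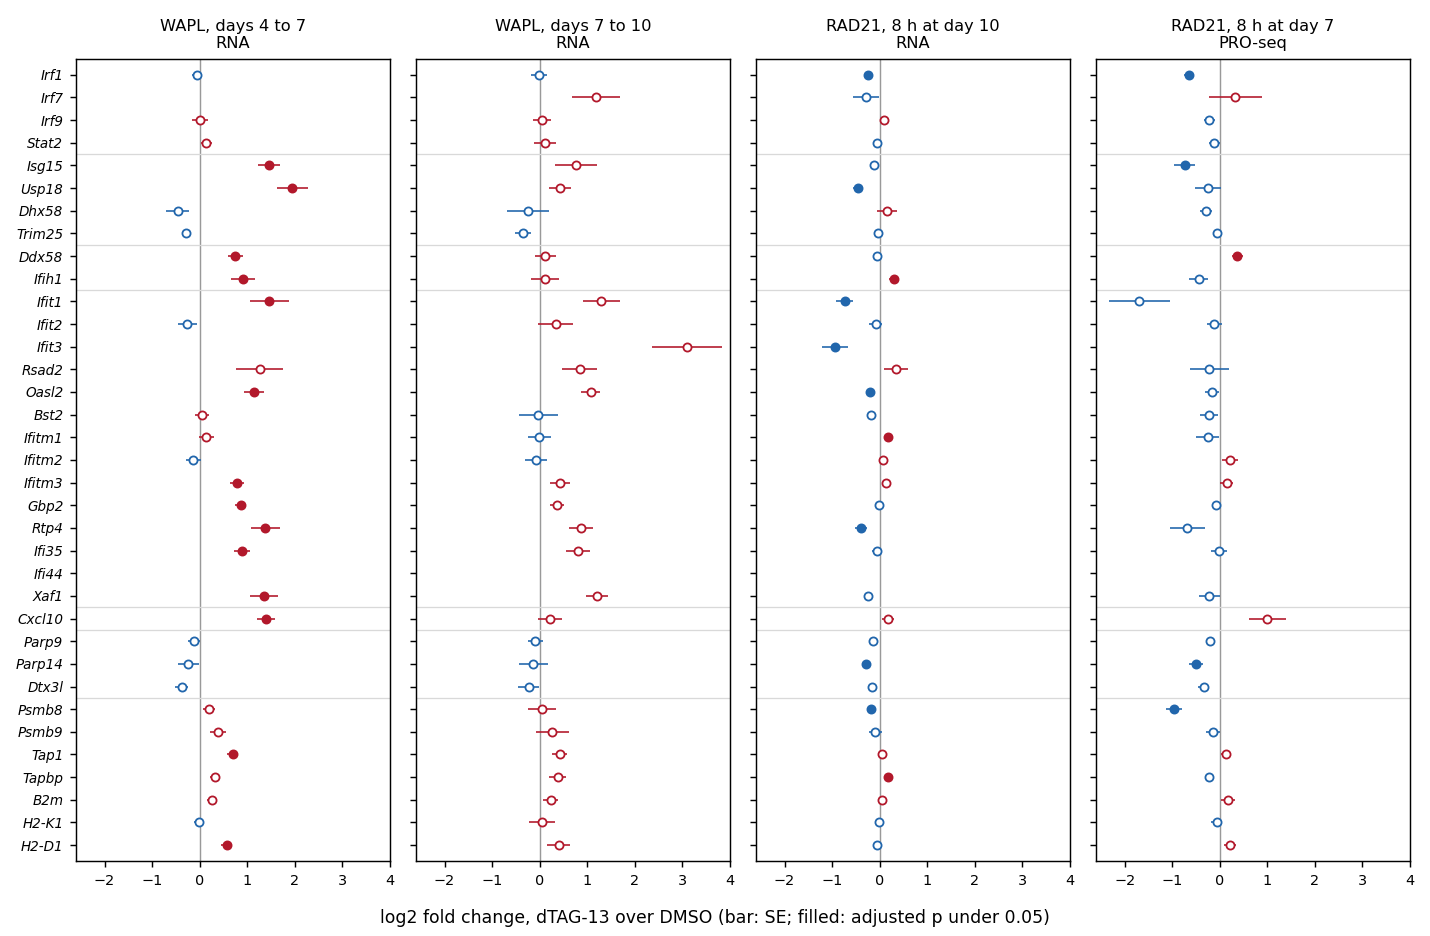
Log2 fold change of dTAG-13 over DMSO with SE for the 35 members in the 4 comparisons, in the order signal regulators, negative feedback and ubiquitin-like, RNA sensors, effectors, chemokine, ADP-ribosylation and antigen presentation, divided by grey lines; red is positive, blue negative, filled symbols had an adjusted p under 0.05, and members not tested have no symbol. Filled symbols are 14 positive and 0 negative for WAPL days 4 to 7, 0 for days 7 to 10, 3 and 8 for RAD21 RNA, and 1 and 4 for PRO-seq.

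Of the 14 members that rose in WAPL cells on days 4 to 7, 5 were also called in the RAD21 RNA. Usp18, Oasl2, Rtp4 and Ifit1 were higher after WAPL loss and lower after RAD21 loss, and Ifih1 was higher in both. Over all genes tested 18.7% were called in that RNA, 8.89% of them as lower and 9.83% as higher. How many other genes that rose after WAPL loss were called there was not counted, so this overlap is not a result about the members. The lines were compared directly at day 10, as the RAD21 response after 8 h minus the WAPL response on days 7 to 10. None of 34 members and none of 14236 genes was called (0%), while 9 members and 839 genes (5.89%) had an unadjusted p under 0.05, all 9 members with negative values. The differences were largest in p for Xaf1 (log2 -1.46, SE 0.24, adjusted p = 0.498), Oasl2 (-1.29, SE 0.23, adjusted p = 0.556) and Ifit1 (-2.02, SE 0.41, adjusted p = 0.563). DESeq2 called 3 members there, all lower: Ifit3, Oasl2 and Xaf1, with adjusted p of 0.0203, 0.0223 and 0.0149. With the replicate number taken as a pair, members were called there too, and the closing section gives the counts over all genes for both fits. The protein lost, the length of treatment and the clones differ between the lines and cannot be told apart.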

How the data were processed

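Of the 94 samples of the series, 18 were used: 14 poly(A) RNA-seq and 4 PRO-seq libraries, grouped by their titles. The other assays were not used here. The authors deposited raw gene counts for the RNA. For PRO-seq the deposited values are expected counts in steps of 0.5, rounded here to whole numbers. The submitters' processing notes name Bowtie2, DESeq, DESeq2, HOMER, Novoalign and TopHat2, with no role or version, and the builds dm6, hg19 and mm9. How reads were counted, with or without strand, and how reads of near copies (the Ifit and Ifitm genes, class I heavy chains) were handled was not given in the sources used here, so the split between such genes, and between overlapping genes, is uncertain.

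The test was edgeR's quasi-likelihood test (edgeR 4.0.16, R 4.3.3) with TMM scaling, genes kept by filterByExpr at a minimum count of 10, and p-values adjusted by Benjamini-Hochberg over all genes tested, with a threshold of 0.05. Fits of the earlier WAPL window and of the RAD21 sets held the clone as a term. In the RAD21 sets it pairs the libraries of the same line (deviations correlate with r = 0.68 in RNA and 0.72 in PRO-seq). Residual degrees of freedom were 3 for the earlier and 2 for the later WAPL window, 1 for RAD21 RNA, 1 for PRO-seq, 5 for the difference between windows and 3 between lines. Log2 CPM within pairs used a prior count of 2. Libraries of the same group differed by more than sampling noise, so none were merged. Floors of 3 counts cover counting error only. Tests were tried on simulated data. Alternatives were DESeq2 1.42.0, limma-voom 3.58.1, RLE and library totals, no filter, a mean count of at least 50, other designs and leaving out each library. The 35 members, the lists and the rule for named genes (members called or with the 6 smallest p per comparison, and up to 4 genes per list by smallest p) were chosen with earlier results of these data known. A gene that this rule names is not reported here. All 35 symbols matched the RefSeq gene table of GRCm38.p6, used for neighbours and promoters only. Figures were drawn with matplotlib 3.10.9.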

Additional observations from a re-analysis of the deposited data

Results flagged for a closer look

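After RAD21 loss for 8 h, 5 of the 33 members tested in both assays moved one way in both clones in PRO-seq at day 7 and the other way in both clones in RNA at day 10. How often genes outside the list did so was not counted, so the number is not a result about the members. The difference between assays was not tested, and assay and day cannot be told apart. As PRO-seq minus RNA, the difference of log2 fold changes was 0.42 for Ddx58, which stood at 0.37 in PRO-seq and -0.05 in RNA. It was -0.74 for Ifih1 (-0.45 in PRO-seq, 0.29 in RNA), -0.45 for Dhx58 (-0.29 and 0.16), -0.44 for Ifitm1 (-0.26 and 0.18) and -0.41 for Tapbp (-0.23 and 0.18). Of these, Ddx58 was called in PRO-seq, Ifih1, Ifitm1 and Tapbp in RNA, and Dhx58 in neither.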

How the results depend on the processing

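For WAPL days 4 to 7 the 14 calls among members were 11 to 16 under the other scalings, filters, tools and without the clone term, and 4 with clone H7 alone. Called genes numbered 360 with clone H7 alone and 994 without the clone term, against 2209. Leaving out 1 library at a time gave 4 to 16 members and 341 to 4433 genes. For days 7 to 10, where nothing was called, DESeq2 called 44 genes, and leaving out 1 library gave 0 to 1 members and 27 to 143 genes. For RAD21 RNA DESeq2 called 472 genes and 0 members, and leaving out 1 library, with no clone term, gave 16 to 94 genes and 0 members. For PRO-seq DESeq2 called 514 genes and 1 member, and leaving out 1 library gave 0 of either. DESeq2 called 4 genes for the difference between windows, 55 genes and 3 members for that between lines, and 1 gene for that between WAPL clones. The cause of these shifts was not tested. The fit with a replicate block takes the number as a pair. For WAPL days 4 to 7 it called 3993 of 14544 genes and 18 of 32 members (16 higher). For days 7 to 10 it called 5141 of 14110 genes and 16 of 34 members (14 higher). Between windows it called 5 of 14326 genes, and between lines 2843 of 14236 genes and 15 of 34 members (14 lower). With no replicate block, which drops the clone term, RAD21 RNA gave 1 gene and 0 members, and PRO-seq 0 genes and 0 members. Deviations of same-numbered libraries correlated with r = 0.52 and 0.54 (clone H7) and 0.63 (H2) on days 4 to 7 and 0.79 on days 7 to 10, but in WAPL cells the labels give only a number. Over single members, 483 values kept their direction and side of the threshold, 147 lost their call, 18 gained it, and 1 turned: Dtx3l in PRO-seq, between log2 -0.68 and 0.028 with 1 library left out (0.028 without DMSO replicate 2). Low counts limit Irf7, Ifit3 and Ifi44.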
